A study of Mus musculus with 4 samples.

Results

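The PD-1 axis and the other checkpoint genes followed here were 10 genes of the 27998 in the deposited gene table, chosen by name as a family of receptors and ligands. They were the ligand genes Cd274 (PD-L1), Pdcd1lg2 (PD-L2), Cd80, Cd86 and Lgals9 (galectin-9) and the receptor genes Pdcd1 (PD-1), Ctla4, Lag3, Havcr2 (TIM-3) and Tigit. Their RNA was counted by droplet single-cell sequencing (10x Genomics Chromium, in which a molecular identifier, UMI, stands for 1 captured RNA molecule) in pleural fluid cells of C57BL/6 mice with malignant pleural effusions of LLC, the Lewis lung carcinoma line. Mice received PBS, LNP-cGAMP (1 µg), the anti-PD-L1 antibody 10F.9G2 (30 µg) or LNP-cGAMP plus the antibody, each into the pleural space on day 11, and cells were collected on day 13, 48 h later. cGAMP, here carried by nanoparticles, is a cyclic dinucleotide that activates the adaptor STING. Each treatment was 1 library pooled in equal parts from 3 mice, so no difference below has a replicate check, no test was run and every interval is a 95% interval that covers counting error only. The comparisons ask in which cells the ligand and receptor genes were detected and how their levels differed with each agent and with both.

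PD-1 is an inhibitory receptor that T cells put on their surface after their antigen receptor has been engaged, and its ligands PD-L1 and PD-L2 dampen T cell signalling when they bind it. PD-L1 is made by many cell types and is raised by interferons through JAK and STAT proteins and IRF1, whereas PD-L2 is mostly a product of antigen-presenting cells. CD80 and CD86 on antigen-presenting cells bind the activating receptor CD28 and, with higher affinity, its inhibitory relative CTLA-4. LAG-3, TIM-3 and TIGIT are further inhibitory receptors, of which LAG-3 binds MHC class II and TIM-3 has galectin-9 among its reported ligands.

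Both PD-1 ligand genes lie side by side on the plus strand of mouse chromosome 19 in GRCm38, the assembly that mm10 names. Cd274 spans chr19:29367455-29388095 and Pdcd1lg2 spans chr19:29410919-29471161, with 22823 bases between them. The 250 bases before the RefSeq starts (GRCm38.p6) of these neighbours are shown because they were higher together in dendritic cell-like cells, and those of Lgals9 because it held the searched interferon motif. Capitals mark matches to the interferon-stimulated response element type of motif, GAAA, any 2 bases and GAAA again, on either strand. The windows are Cd274 at chr19:29367188-29367437 (plus strand), Pdcd1lg2 at chr19:29410669-29410918 (plus strand) and Lgals9 at chr11:78984925-78985174 (minus strand), each 5′ to 3′ on the strand of its gene.
Cd274: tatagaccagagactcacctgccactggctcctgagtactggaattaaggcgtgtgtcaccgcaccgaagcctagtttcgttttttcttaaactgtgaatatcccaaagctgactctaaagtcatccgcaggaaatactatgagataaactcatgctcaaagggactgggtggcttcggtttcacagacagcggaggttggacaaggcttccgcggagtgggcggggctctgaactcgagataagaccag
Pdcd1lg2: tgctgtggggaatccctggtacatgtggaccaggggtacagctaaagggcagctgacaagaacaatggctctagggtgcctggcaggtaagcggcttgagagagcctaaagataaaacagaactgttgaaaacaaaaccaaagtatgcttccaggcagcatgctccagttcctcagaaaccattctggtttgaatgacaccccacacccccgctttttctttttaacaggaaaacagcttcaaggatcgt
Lgals9: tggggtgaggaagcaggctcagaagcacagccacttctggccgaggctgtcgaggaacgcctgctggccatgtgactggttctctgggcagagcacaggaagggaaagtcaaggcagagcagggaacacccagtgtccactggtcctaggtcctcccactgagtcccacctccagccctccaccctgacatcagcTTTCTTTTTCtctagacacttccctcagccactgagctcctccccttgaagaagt
RefSeq windows of 300 bases (250 before and 50 after the start) were at hand for 8 of the 10 members. The response element motif occurred in 1 of these 8 genes, Lgals9, with its first base 55 bases before the start and again at base 16 after it, both on the opposite strand. Of 32851 mouse windows of this length, 3.44% held that motif and 8.30% held TTCNNNGAA, the gamma-activated site, which reads the same on both strands and was found in 0 of the 8. A match describes letters only, and the lack of one says nothing about a factor.

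The libraries held 68828158 to 88855120 UMIs, and 2841 (PBS), 3839 (LNP-cGAMP), 3392 (antibody) and 3547 (both agents) cells were kept, with median UMI counts of 16423 to 18607. Where 4 values follow each other below, they stand in that order of libraries. Clusters were called "-like" after marker genes, and members and other pathway genes took no part in the clustering. Between 16 and 21 cell barcodes were shared by a pair of libraries where 1.42 to 2.00 would be met if libraries were independent; leaving out the 25 to 30 such cells of each library moved no count given below. By sex-linked RNA, 1880 cells were called male and 18 female in PBS, 2696 and 5 in LNP-cGAMP, 758 and 1617 with the antibody and 495 and 1809 with both, so each of the last 2 pools held many cells of both calls.

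Cd274, the gene of PD-L1, was highest per UMI in neutrophil-like cells in every library. Its level, as the gene's UMIs scaled to 1000000 UMIs of the class (CPM), was 390 in PBS, 429 after LNP-cGAMP, 403 after anti-PD-L1 and 278 after both agents (intervals of 363 to 419, 406 to 454, 378 to 430 and 252 to 306). In monocyte/macrophage-like cells the corresponding levels were 123, 174, 192 and 150 CPM, and in conventional dendritic cell-like cells they were 83.9, 239, 129 and 134 CPM. The neutrophil intervals did not overlap those of macrophages in any library, whereas in LNP-cGAMP dendritic cells stood above macrophages and in the other libraries below them or alongside. Macrophage-like cells gave 83.6% to 91.7% of all Cd274 UMIs of a library and neutrophils 3.94% to 11.7%. T cell-like cells held 20.8 to 42.2 CPM and B cell-like cells 61.5 to 106 CPM from 11 to 40 UMIs. Macrophage genes such as C1qa and Lyz2 gave 1.78% of B cell-like UMIs in PBS and 0.204%, 0.762% and 0.588% in the treated libraries. The part of macrophage RNA in the B cell level of Cd274 was not tested.

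**Figure D1:**
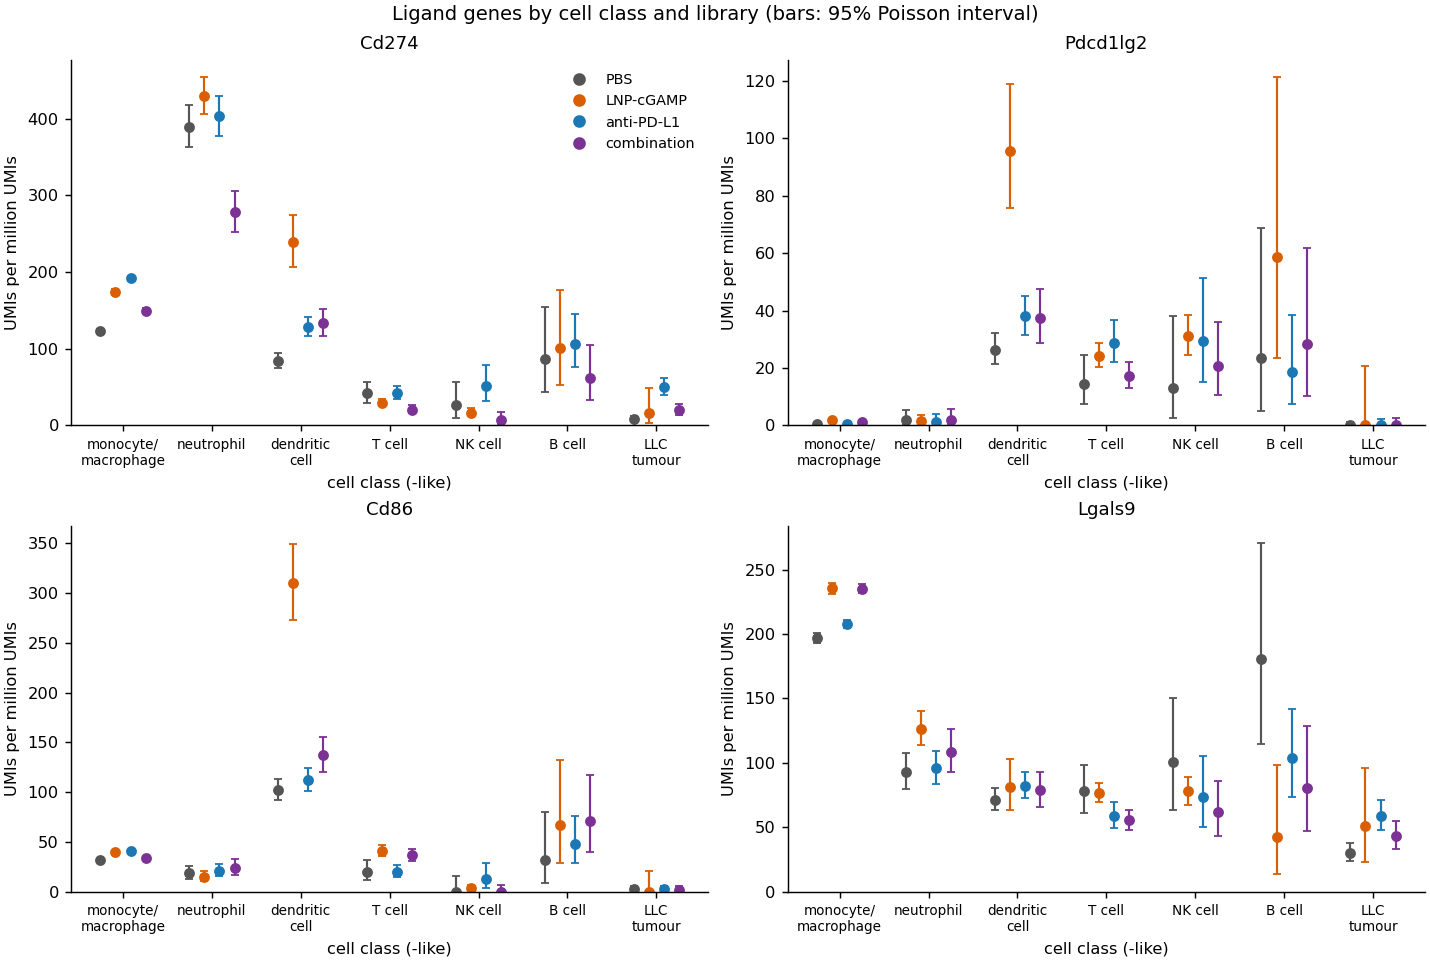
Level of Cd274, Pdcd1lg2, Cd86 and Lgals9 (vertical axes, CPM) in 7 cell classes (horizontal axes), 1 point per library, with bars for the 95% Poisson interval of counting error. Cd274 was highest in neutrophil-like cells (278 to 429 CPM), and Cd86 and Pdcd1lg2 were highest in dendritic cell-like cells of the LNP-cGAMP library (310 and 95.7 CPM).

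The tumour cells of the fluid carried little Cd274. LLC-like cells held 8.47 CPM in PBS (interval 5.37 to 12.7, 39 cells), 16.9 after LNP-cGAMP (3.48 to 49.2, 3 UMIs in 17 cells), 50.2 after anti-PD-L1 (40.3 to 61.8, 34 cells) and 19.6 after both agents (13.1 to 28.1, 28 cells). Near-empty barcodes of 10 to 100 UMIs, which sample free RNA, held Cd274 at 107 to 211 CPM, above the LLC and T cell levels in every library. From macrophage and neutrophil genes, free RNA was estimated at 5.35% to 12.1% of T cell UMIs, which brings 21.1, 13.6, 18.8 and 5.73 CPM of Cd274 beside the 41.7, 29.3, 42.2 and 20.8 CPM measured in T cell-like cells. For LLC-like cells no such estimate was made, and the part of free RNA in their level was not tested. Depth was lowest for the LNP-cGAMP tumour cells, whose median was 1295 UMIs beside 25602.5 to 70197 elsewhere.

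Thinning every cell to 2000 UMIs, and leaving out shallower cells, again put neutrophils above macrophage-like cells in every library. A Cd274 UMI was then found in 44.7% of 490 PBS, 45.1% of 731 LNP-cGAMP, 43.6% of 610 antibody and 38.9% of 463 combination neutrophils, and in 19.8%, 27.4%, 30.1% and 24.9% of macrophage-like cells. Without thinning these shares were 45.5% to 55.5% and 80.1% to 92.0%, at median depths of 2089 to 2510 and 20599.5 to 34810.5 UMIs. T cells thinned alike gave 6.33% to 11.03%.

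Over all monocyte/macrophage-like cells, of either sex call, Cd274 was higher in all 3 treated libraries than in PBS, most so after the antibody. The fold was 1.41 (1.37 to 1.46) for LNP-cGAMP, 1.56 (1.52 to 1.61) for anti-PD-L1 and 1.22 (1.18 to 1.26) for the combination. Of the 2 members measured well enough in this class for a call, Cd274 and Lgals9, 0, 1 and 0 differed by at least 1.5-fold, where 19.7%, 2.53% and 5.98% of 3275 genes did so in the same comparisons. The call for anti-PD-L1 was Cd274, with a log2 ratio of 0.60 on the scale of CPM plus 10. Under 11 of 14 other settings it was still past 1.5-fold, and it was lowest at 0.43 in cells called male.

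The macrophage clusters differed between libraries, so Cd274 was also read within clusters. In cluster 1 (Lyve1 Marco) it was at 133 CPM in PBS, 209 after anti-PD-L1 and 149 after both agents, in cluster 4 (Cd163 Ccl24) at 106, 168 and 118, and in cluster 3 (Vcan Ccr2) at 104, 180 and 116. Anti-PD-L1 was thus 1.58-fold (1.52 to 1.64), 1.58-fold (1.496 to 1.674) and 1.74-fold (1.57 to 1.93) above PBS in these 3 clusters, while the combination was 1.11-fold to 1.12-fold above it. Cluster 3 was the only one of the 3 with over 5 LNP-cGAMP cells, and there Cd274 was at 117 CPM in that library, 1.12-fold (0.979 to 1.29) over PBS. In clusters 1, 4 and 3 the combination had 408, 201 and 232 female-called and 2, 0 and 5 male-called cells. Anti-PD-L1 had 405, 350 and 381 female-called and 263, 171 and 147 male-called cells there. No PBS cell of these clusters was called female, so the sex call differed along with the treatment.

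Clusters filled mostly from LNP-cGAMP and combination cells spanned a wide range of Cd274. Cluster 10 (Fabp5 Ccl8) held 295 CPM in LNP-cGAMP and 319 in the combination, and cluster 2 (Ccl12 Ms4a7) 229 and 204. Clusters 8 and 5, whose leading gene was Saa3, were low, with 132 and 71.4 CPM in cluster 8 (Saa3 Gpnmb) and 94.8 and 39.4 in cluster 5 (Saa3 Mmp8). In cluster 5 the combination was at 0.416 times (0.361 to 0.478) the LNP-cGAMP level, and in cluster 10 at 1.08 times (1.01 to 1.16). The class level of each library is a sum over clusters that differ in Cd274 by this much. The combination cells of cluster 5 were 262 male-called and 10 female-called, and those of cluster 10 were 2 and 133. No LNP-cGAMP cell of either cluster was called female, so in cluster 10 the sex call changed along with the treatment.

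**Figure D2:**
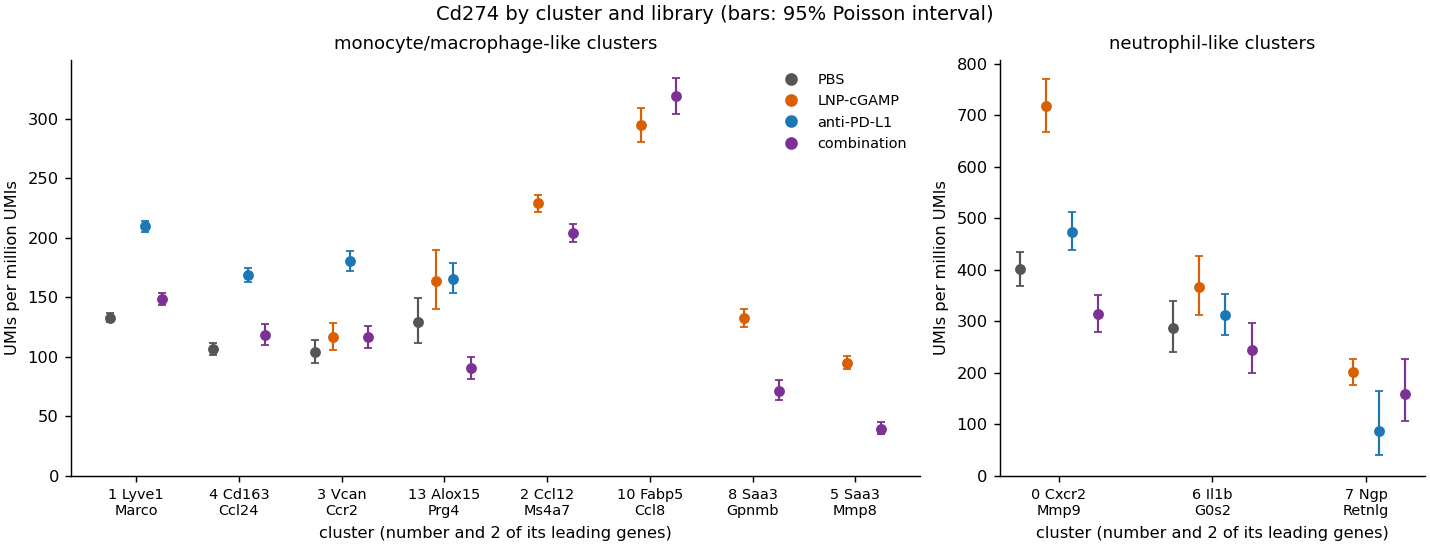
Cd274 (vertical axis, CPM) in monocyte/macrophage-like clusters (left, at least 20 cells in a library) and neutrophil-like clusters (right, at least 19 cells; the smallest cluster, 20, is not drawn), 1 point per library with its 95% Poisson interval. In clusters 1, 4 and 3 anti-PD-L1 lay above PBS and the combination, and cluster 10 held the highest macrophage levels (295 and 319 CPM).

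The combination pool was split in Cd274 by the sex of the cells. Its 461 male-called macrophage-like cells held 49.4 CPM (45.2 to 53.9) and its 1483 female-called cells 166 CPM (162 to 170). Of the male-called cells 96.7% lay in clusters 5, 8 and 13, which held 2.97% of the female-called cells. In anti-PD-L1 the gap was narrower, with 170 CPM (164 to 175) in 598 male-called and 203 (199 to 208) in 1238 female-called cells, of which 2.68% and 6.87% lay in those clusters. Male-called cells of PBS held 123 CPM and those of LNP-cGAMP 173. Among male-called cells the combination was therefore below PBS (log2 ratio of -1.17 against 0.26 for all cells), and anti-PD-L1 was not above LNP-cGAMP. The part of mouse and sex in these values was not tested.

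**Figure D3:**
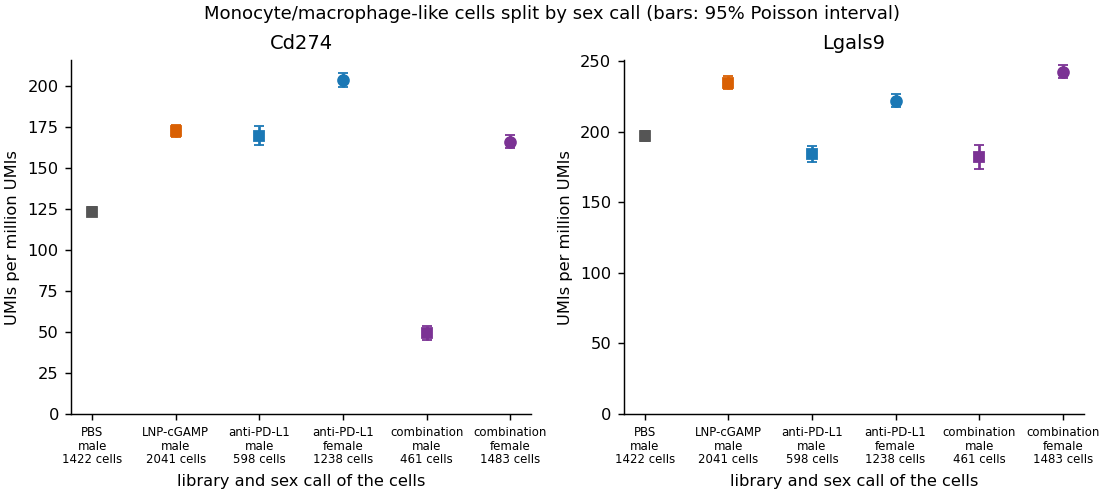
Cd274 (left) and Lgals9 (right) in monocyte/macrophage-like cells (vertical axes, CPM) by library and sex call, squares for male-called and circles for female-called cells, with 95% Poisson intervals. In the combination Cd274 was at 49.4 CPM in male-called and 166 in female-called cells.

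In neutrophil-like cells the class level of Cd274 in the single-agent libraries was 1.10-fold (LNP-cGAMP) and 1.03-fold (anti-PD-L1) that of PBS, and the combination was lowest, 1.40-fold (1.24 to 1.58) below PBS and 1.54-fold (1.38 to 1.73) below LNP-cGAMP. Of the 2 members measured, Cd274 and Lgals9, 0 were at least 1.5-fold from PBS in any of the 3 treated libraries, where 19.3%, 13.1% and 22.2% of 2653 genes were (LNP-cGAMP, anti-PD-L1, combination). The median log2 ratio over all genes in this class was -0.16, -0.15 and -0.26, and it turned to 0.11, 0.13 and 0.07 with TMM scaling, under which the Cd274 ratio of the combination shrank from -0.47 to -0.15.

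Among neutrophil clusters, cluster 0 of the LNP-cGAMP library stood above that library's class level, and clusters 6 and 7 lay below it. In cluster 0 (Cxcr2 Mmp9) Cd274 was at 401 CPM in PBS, 718 after LNP-cGAMP, 473 after anti-PD-L1 and 313 after both agents, so LNP-cGAMP was 1.79-fold (1.61 to 2.00) above PBS and 2.29-fold above the combination. At resolution 2 neutrophil clusters led by S100a9 and by Mmp9 held 261, 46, 304 and 245 cells and 412, 23, 233 and 27 cells. A further one, with Il1f9 and Ifit3b among its leading genes, held 10, 372, 51 and 119. The part of such make-up in the cluster 0 ratios was not tested. Cluster 6 (Il1b G0s2) ranged from 244 to 365 CPM. Cluster 7 (Ngp Retnlg), which held 478 of the 1091 LNP-cGAMP neutrophils but 9 of 877 in PBS, was at 200 CPM in LNP-cGAMP. The highest Cd274 of any cluster was in cluster 20 (Hcar2 Cxcl2), 26 cells in all, with 2648, 1128, 1327 and 1037 CPM in the PBS, LNP-cGAMP, antibody and combination libraries from 43, 30, 21 and 5 UMIs. Depth limits the neutrophil values, with medians of 2089 to 2510 UMIs. Against PBS the LNP-cGAMP log2 ratio of the class was 0.14, and it was -0.06 with a minimum of 2000 UMIs per cell and -0.24 in cells called male.

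Conventional dendritic cell-like cells carried the clearest joint difference of the ligand genes. In LNP-cGAMP, Cd274 was 2.85-fold (2.37 to 3.42) above PBS, Pdcd1lg2 3.62-fold (2.66 to 4.93) and Cd86 3.04-fold (2.58 to 3.57). Pdcd1lg2 was at 26.4 CPM in PBS, 95.7 after LNP-cGAMP, 38.0 after anti-PD-L1 and 37.3 after both agents. Cd86 (chr16:36603869-36666081), a CD28 ligand of antigen-presenting cells, was at 102, 310, 112 and 137 CPM. Its relative Cd80 (chr16:38455561-38496335) was at 7.78, 33.5, 10.2 and 9.18 CPM from 28, 28, 34 and 16 UMIs. For each of these 4 genes the LNP-cGAMP interval lay above the other 3.

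Of the 4 members measured in this class (Cd274, Pdcd1lg2, Cd86 and Lgals9), 3 were at least 1.5-fold higher with LNP-cGAMP, 0 with the antibody and 1 (Cd274, 1.59-fold) with both, and none was lower. Over 3358 genes the share at least 1.5-fold from PBS was 23.6%, 2.2% and 4.79%. The median log2 ratio of the 4 members was 1.46, 0.29 and 0.39, against 0.02, 0.01 and -0.02 over all genes. Pdcd1lg2 reached the 50 CPM needed for a call only in LNP-cGAMP (95.7 CPM, with 26.4 to 38.0 CPM elsewhere). The LNP-cGAMP count of 3 and median of 1.46 thus lean in part on that filter. Lgals9 stayed within 71.4 to 82.3 CPM. These values rest on 146, 57, 149 and 91 cells, and assigning each cell by marker score in place of its cluster brought the LNP-cGAMP ratios of Pdcd1lg2 and Cd86 from 1.54 and 1.51 down to 0.23 and 0.15 (log2), with Cd274 at 0.79. The make-up of the class also differed between libraries. Macrophage genes such as C1qa and Lyz2 gave 0.588%, 0.163%, 0.642% and 0.591% of its UMIs. At resolution 2 a dendritic cluster with Xcr1 and Clec9a among its leading genes held 12, 1, 13 and 10 cells. The part of this make-up in the ratios was not tested.

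The pattern was clearest in the larger dendritic cluster. In cluster 9, high in MHC class II, LNP-cGAMP held Cd274 at 175 CPM against 65.0 in PBS, Pdcd1lg2 at 68.3 against 12.6 and Cd86 at 286 against 92.8. Cluster 18, marked by Ccr7 and Fscn1 as migratory dendritic cells are, was small (45 cells) but held the highest Pdcd1lg2 of all clusters, at 206, 287, 248 and 190 CPM, beside Cd274 at 330, 689, 589 and 432 CPM. There LNP-cGAMP was highest for both genes, but its interval overlapped that of at least 1 other library. Its Cd80 level over all libraries was 73.2 CPM. It was also the only myeloid cluster with Pdcd1 above 50 CPM (79.1 CPM, 54 UMIs over all libraries).

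**Figure D4:**
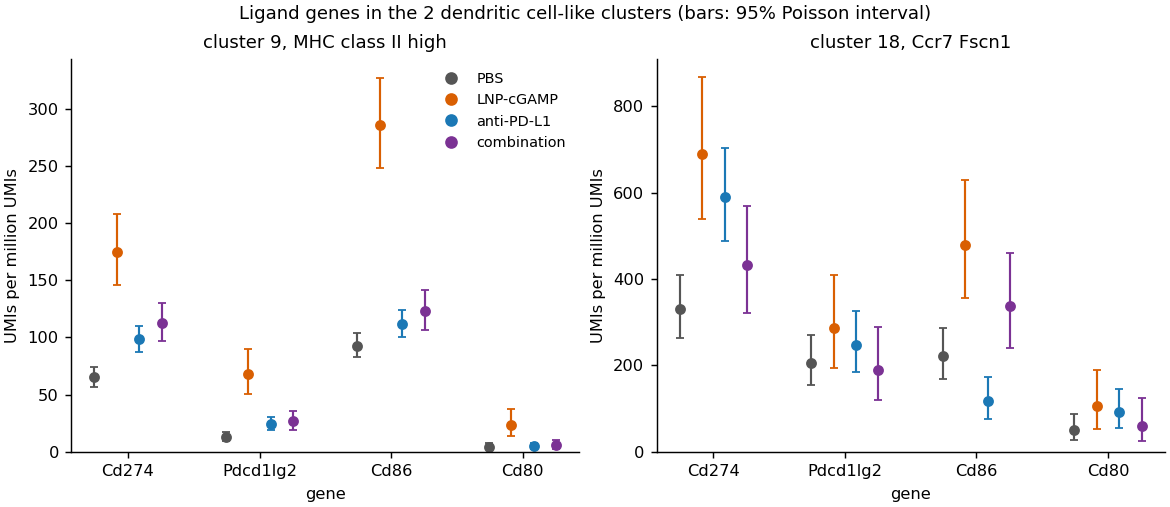
Cd274, Pdcd1lg2, Cd86 and Cd80 (vertical axes, CPM; scales differ) in dendritic cell-like clusters 9 (left) and 18 (right), 1 point per library with its 95% Poisson interval. In cluster 9 the LNP-cGAMP points lie above those of the other libraries for all 4 genes, as for Cd86 at 286 CPM against 92.8 to 123.

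Pdcd1lg2 was nearly absent from macrophages and neutrophils (0.513 to 1.94 and 1.32 to 2.05 CPM) and was not detected in LLC-like cells, where 0 UMIs in PBS allow up to 1.10 CPM (a limit of 3 counts). In lymphoid cells it was detected at low levels. T cell-like cells held 14.3, 24.2, 28.8 and 17.2 CPM and NK cell-like cells 13.1, 31.0, 29.5 and 20.6 CPM from 3, 81, 12 and 12 UMIs. Free RNA held 2.56 to 9.47 CPM of this gene, below both. In LNP-cGAMP, 242 T and 101 NK cell-like cells gave 135 and 81 Pdcd1lg2 UMIs, and 57 dendritic cell-like cells gave 80. Per UMI the dendritic cell-like cells were the highest of these, at 95.7 CPM. Macrophage-like cells of that library, although at 1.94 CPM, gave 87 UMIs from the male-called cells alone.

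Cd86 in macrophage-like cells was at 31.6, 39.3, 40.6 and 33.3 CPM, and cells of this class gave 78.3% to 85.2% of its UMIs. Among macrophage clusters with at least 20 cells it was highest in cluster 3 (Vcan Ccr2), at 79.0, 58.9, 84.6 and 57.8 CPM. In T cell-like cells Cd86 was at 19.8, 41.1, 19.8 and 36.3 CPM, and in cluster 11 a Cd86 UMI was found in 33.3%, 52.5%, 30.6% and 54.6% of cells before thinning and in 0 of 15 PBS cells (interval up to 21.8%) and 11.0%, 2.04% and 8.33% of treated cells at 2000 UMIs. The estimated free RNA share brings 5.27, 4.17, 4.06 and 2.28 CPM of Cd86 to T cells, below the measured level in each library. T cells of sub-cluster 6, which also carried macrophage and MHC class II genes, held part of that signal: without them T cells were at 8.70, 35.5, 9.67 and 29.1 CPM. No doublet caller was run, and the part of doublets in the T cell signal was not tested.

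Lgals9 (chr11:78962974-78984946), the gene of galectin-9, was mostly detected in macrophage-like cells, with 89.9% to 94.1% of its UMIs in that class. Its level there was 197 CPM in PBS, 236 after LNP-cGAMP, 208 after anti-PD-L1 and 235 after both agents, a fold of 1.196 (1.17 to 1.23), 1.06 (1.03 to 1.08) and 1.19 (1.17 to 1.22) over PBS. The difference was larger within the Vcan Ccr2 cluster 3, at 148, 320, 190 and 253 CPM. Male-called combination cells were again lower (182 CPM) than female-called ones (242). Neutrophils held 92.7 to 126 CPM and T cells 55.4 to 78, where the estimated free RNA share brings 7.01 to 19.3 and 7.46 to 17.3 CPM.

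Among receptors, Pdcd1 (chr1:94038305-94052553) was mostly a T cell gene: 84.3% to 96.3% of its UMIs fell in T cell-like cells. Its level over the class hardly differed, at 294 CPM in PBS (260 to 332), 316 after LNP-cGAMP (301 to 331), 345 after anti-PD-L1 (321 to 370) and 318 after both agents (300 to 337). Within cells of 1 sex call the levels were 323 and 322 CPM in male-called PBS and LNP-cGAMP cells and 329 and 329 in female-called anti-PD-L1 and combination cells. The classes behind these sums were made up differently, with 15 of 81, 158 of 242, 49 of 146 and 108 of 159 cells in cluster 11 (Gzmb Cd8a), which gave 52.5%, 85.1%, 63.8% and 90.5% of T cell UMIs.

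Within cluster 11 Pdcd1 was lower in both libraries that had received LNP-cGAMP. It was at 511 CPM in PBS (448 to 579, 15 cells), 364 after LNP-cGAMP (347 to 381), 488 after anti-PD-L1 (452 to 526) and 347 after both agents (328 to 368), and the PBS and anti-PD-L1 intervals do not overlap the other ones. Cluster 12 (Il7r Tcf7) held 55.5, 41.1, 93.0 and 41.0 CPM. With every T cell weighted equally in place of by its UMIs, the log2 ratio of Pdcd1 against PBS was 0.79 for LNP-cGAMP and 0.81 for the combination, against 0.10 and 0.11 for the class sums.

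**Figure D5:**
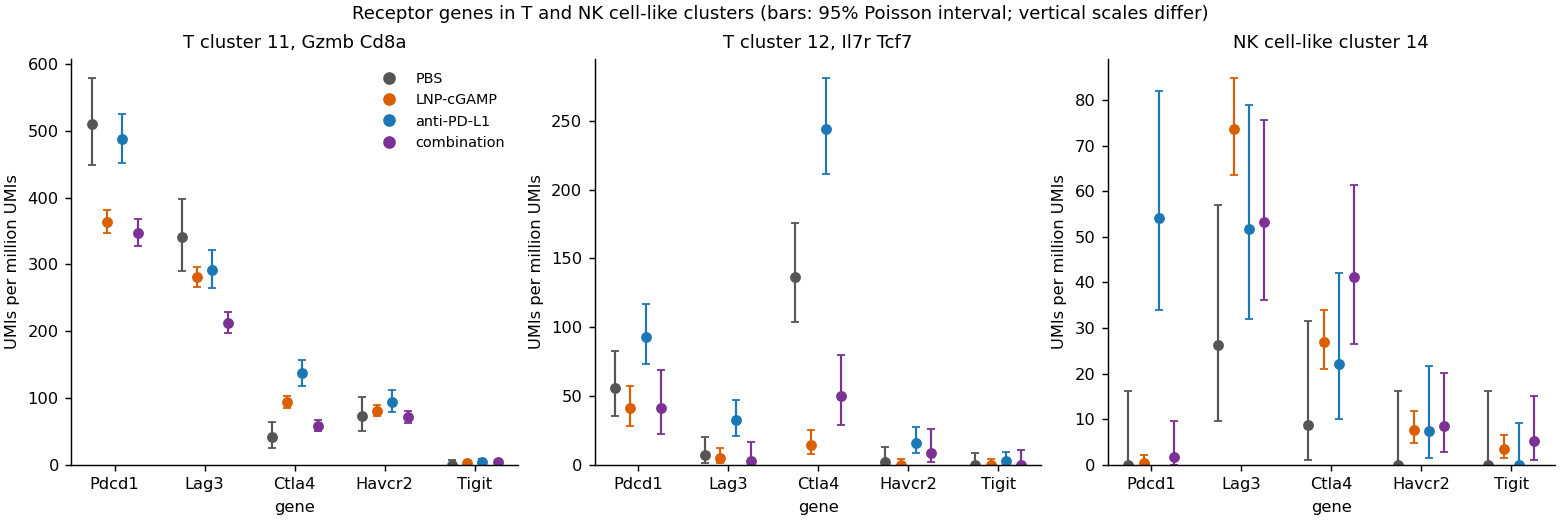
Receptor genes (vertical axes, CPM; scales differ) in T cell-like clusters 11 and 12 and in NK cell-like cells, 1 point per library with its 95% Poisson interval. Pdcd1 in cluster 11 was at 511 and 488 CPM in PBS and anti-PD-L1 and at 364 and 347 CPM in the LNP-cGAMP and combination libraries, and Ctla4 in cluster 12 was highest in anti-PD-L1 (244 CPM).

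At 2000 UMIs a Pdcd1 UMI was found in 12 of 79 PBS T cells and in 33.6% of 238 LNP-cGAMP, 26.2% of 145 antibody and 36.7% of 158 combination T cells, and a Lag3 UMI in 13.9%, 27.7%, 16.6% and 27.2%. Of the T cells with a Lag3 UMI, 10 of 11, 65 of 66, 21 of 24 and 43 of 43 lay in cluster 11. Neutrophils at the same depth, a type that should lack both, gave at most 0.547% and 0.137%. Within cluster 11 the Pdcd1 shares were 53.3%, 48.4%, 57.1% and 49.1%, with intervals that all overlap. Median depths of T cells before thinning were 5917, 15989, 7532 and 17477 UMIs, and shares were then 30.9%, 65.7%, 45.9% and 69.8% for Pdcd1.

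Over all T cell-like cells at 2000 UMIs, Pdcd1 and Lag3 were found together in 5 of 79 cells of PBS (6.33%) and in 14.3%, 12.4% and 12.7% of cells of the treated libraries, where the product of the single shares is 2.12%, 9.32%, 4.34% and 9.99%. Within cluster 11 both had a UMI in 4 of 15 cells of PBS and in 21.9%, 32.7% and 18.5% of cells of the treated libraries, where the product is 35.6%, 20.3%, 24.5% and 19.5% and lies within each share's interval. A UMI of none of the 5 receptor genes was found in 1 of 15 cells of PBS and in 21.3%, 20.4% and 20.4% of those of the treated libraries in that cluster.

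Of the 5 members measured in T cells (Pdcd1, Ctla4, Lag3, Havcr2 and Lgals9), 1 was at least 1.5-fold higher after LNP-cGAMP (Havcr2), 2 after anti-PD-L1 (Ctla4 and Havcr2) and 1 after both agents (Havcr2), and none was lower. The same held for 13.1%, 4.18% and 15.9% of 3323 genes in either direction. The members' median log2 ratio was 0.10, 0.22 and 0.08, against 0.11, 0.02 and 0.08 over all genes. Havcr2, at 39.5 CPM in PBS, reached the 50 CPM needed for a call only in the treated libraries. Its calls, the only ones for LNP-cGAMP and the combination, thus lean on that filter.

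Ctla4 (chr1:60887000-60915832) outcompetes CD28 for CD80 and CD86 and is made constantly by regulatory T cells. Of the receptor genes, it differed most between the antibody library and the combination over all T cell-like cells. T cell-like cells held 86.8 CPM in PBS, 81.9 after LNP-cGAMP, 176 after anti-PD-L1 and 57.1 after both agents, so anti-PD-L1 was 2.03-fold (1.59 to 2.61) above PBS and 3.08-fold (2.59 to 3.66) above the combination. A finer clustering of T and NK cell-like cells into 11 sub-clusters set apart 12 regulatory T-like cells (sub-cluster 10, led by Foxp3, Izumo1r and Tnfrsf4), 5 in PBS, 0 after LNP-cGAMP, 6 after anti-PD-L1 and 1 after both agents. They held 42, 107 and 5 Ctla4 UMIs (1173 CPM over all libraries), so a few cells weigh heavily. Without them the T cell levels were 42.4, 81.9, 133 and 55.8 CPM, and the log2 ratio against PBS went from -0.07 to 0.81 for LNP-cGAMP, from 0.94 to 1.45 for anti-PD-L1 and from -0.53 to 0.33 for the combination. The order of anti-PD-L1 above the combination was kept in all 15 other settings (log2 ratio of -2.09 to -0.85 for combination against anti-PD-L1).

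Within cluster 11 alone Ctla4 was at 41.8, 93.7, 137 and 57.9 CPM, and anti-PD-L1 was highest again. Pdcd1 and Lag3 were also lower in the combination than after anti-PD-L1 within cluster 11. The same held within cluster 12 (Pdcd1 41.0 against 93.0 CPM, Lag3 2.93 against 32.2 CPM). Sub-cluster 9, 30 cells with Cd163l1 and Rora among their leading genes and no subtype name, held Ctla4 at 173 CPM and Pdcd1 at 321 CPM with Lag3 at 6.17 CPM. Its Lag3 rested on 1 UMI.

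Lag3 (chr6:124904361-124911705), a receptor for MHC class II, was at 182, 240, 198 and 193 CPM in T cell-like cells, 1.32-fold (1.12 to 1.56) above PBS in LNP-cGAMP and at 1.08-fold and 1.06-fold in the other libraries. Nearly all of it lay in cluster 11 (341, 281, 292 and 213 CPM) and little in cluster 12 (2.93 to 32.2 CPM). Sub-cluster 3 (Ifng Xcl1), T cells with effector cytokine genes, held the highest Lag3 (467 CPM) and Pdcd1 (513 CPM) over all libraries. Lag3 within it was at 756, 500, 562 and 297 CPM, highest in PBS from 67 UMIs in 6 cells and lowest in the combination.

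Havcr2 (TIM-3, chr11:46454935-46481255) in T cell-like cells was at 39.5 CPM in PBS (27.7 to 54.7, 36 UMIs) and at 68.6, 66.1 and 65.4 CPM in the treated libraries, a fold of 1.73 (1.23 to 2.51), 1.67 (1.15 to 2.48) and 1.65 (1.16 to 2.42). Within cluster 11 it was at 73.2, 80.6, 94.5 and 71.3 CPM with intervals that overlap, so the difference over the class was not seen within that cluster. Macrophage-like cells gave 69.8% to 76.0% of Havcr2 UMIs. Its level there was 5.42 CPM in PBS, 24.1 after LNP-cGAMP, 8.17 after anti-PD-L1 and 10.8 after both agents, too low for a call (under 50 CPM in every library). Cluster 8 (Saa3 Gpnmb) was highest in LNP-cGAMP, at 42.3 CPM. In cluster 3 (Vcan Ccr2) LNP-cGAMP was below PBS, at 18.4 against 26.1 CPM (0.703-fold, 0.509 to 0.964). The combination was at 0.689-fold (0.52 to 0.912) there and anti-PD-L1 at 0.881-fold (0.6996 to 1.114). In clusters 1 and 4 anti-PD-L1 was 1.66-fold and 1.54-fold over PBS, and the combination was at 1.11-fold and 0.996-fold. The part of cluster make-up in the macrophage class levels of Havcr2 was not tested.

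Tigit (chr16:43648867-43664146), a receptor of the nectin family of ligands, was at the edge of detection. T cell-like cells gave 0, 11, 8 and 12 UMIs (at most 3.60 CPM), and 0 UMIs in PBS allow up to 3.30 CPM (a limit of 3 counts). The treated intervals begin at 0.986 to 1.72 CPM, below that limit, so no difference was detectable at this depth.

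In NK cell-like cells (32, 101, 34 and 34 cells) the receptor genes with the most UMIs over all libraries were Lag3 and Ctla4. Havcr2 and Tigit were low, with 28 and 12 UMIs over all libraries (7.31 and 3.13 CPM). Lag3 was at 26.2, 73.5, 51.6 and 53.3 CPM from 6, 192, 21 and 31 UMIs, and Ctla4 at 8.72, 26.8, 22.1 and 41.3 CPM from 2, 70, 9 and 24 UMIs. Only for Lag3 did the LNP-cGAMP interval (63.5 to 84.7) lie above that of PBS (9.60 to 56.9). Pdcd1 gave 0, 1, 22 and 1 UMIs, and 18 of the 22 in anti-PD-L1 came from 2 cells of sub-cluster 8. Without NK cells that held a UMI of a T cell receptor complex or CD8 gene, 4 remained, so no NK expression of Pdcd1 is read from these cells. Lag3 without those cells was at 28.1, 75.0, 44.7 and 45.9 CPM. Median depth was 5559 UMIs in PBS and 24788 in LNP-cGAMP.

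Other genes of the pathway came from a list of 59 names, 57 of them in the table. In macrophage-like cells 5 of 20 measured were at least 1.5-fold higher and 0 lower in LNP-cGAMP, 1 and 0 with the antibody and 1 and 0 with both (median log2 ratio 0.44, 0.06 and 0.14). Of all 3275 genes tested in the class, 11.6% passed upward and 8.09% downward for LNP-cGAMP, 1.71% and 0.824% with the antibody and 4.24% and 1.74% with both. Among the highest were H2-T23, the non-classical MHC gene (Qa-1) whose product NKG2A binds, at 949 against 380 CPM, Socs1, a feedback inhibitor of JAK signalling, at 177 against 75.0, and Irf1, an interferon-induced transcription factor, at 340 against 192. Socs1 was as high in anti-PD-L1 (188 CPM), where Irf1 was at 249 CPM. Cmtm6, whose product keeps PD-L1 protein at the cell surface, was at 87.4, 80.4, 84.7 and 65.2 CPM. Jak2 was at 19.4, 30.4, 24.8 and 22.9 CPM.

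In dendritic cell-like cells, where the ligand genes differed most, 10 of 26 stood higher and 2 lower with LNP-cGAMP, 1 and 1 with the antibody and 2 and 0 with both. Over all genes in that class the shares were 12.7% and 10.9%, 1.28% and 0.923%, and 3.07% and 1.73%. Irf1 was at 215, 368, 282 and 266 CPM. In neutrophils 0 of 22 differed by 1.5-fold in LNP-cGAMP, 2 stood higher and 1 lower with the antibody and 1 and 1 with both, against 6.48% and 12.8%, 2.94% and 10.2%, and 4.79% and 17.4% of all genes. Irf1 was at 1074, 1091, 1049 and 757 CPM there, lowest in the combination as Cd274 was. Lgals3 (614 against 893 CPM) and the phagocytosis checkpoint receptor Sirpa (157 against 233) were the lowest in LNP-cGAMP, and Cd47, the ligand of SIRPα, was at 816 against 623 CPM.

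In T cell-like cells 2 of 28 stood higher and 5 lower with LNP-cGAMP, 0 and 0 with the antibody and 1 and 7 with both. Over all genes the shares were 7.22% and 5.87%, 2.08% and 2.11%, and 6.86% and 9.00%. The lowest were Cd200 (6.29 against 54.9 CPM), the costimulatory receptors Tnfrsf4 (OX40; 61.8 against 181) and Tnfrsf18 (GITR; 129 against 260) and Stat3 (127 against 226). Tnfrsf4 and Tnfrsf18 were also leading genes of the regulatory T-like sub-cluster, of which LNP-cGAMP had no cell. Entpd1 (CD39), an ectonucleotidase of exhausted and regulatory T cells, was the highest at 76.3 against 34.0 CPM. Cd200 reached the 50 CPM needed for a call only in PBS, and Entpd1 only in LNP-cGAMP and the combination (71.2 CPM). Their part in the counts thus leans on that filter. Cd28 was at 113, 128, 133 and 139 CPM, Icos at 115, 103, 132 and 87.3, and Tox, a transcription factor of exhausted T cells, at 133, 140, 103 and 136.

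Genes whose levels ran most like those of 4 members were named over 17 pairs of class and library from 5 classes. These points share libraries and classes, so the correlations are descriptions. Cd274 was most like Gabarap (Pearson r of 0.983), Sat1 (0.982) and Tmem59 (0.977), and Pdcd1lg2 like Gpr171 (0.983), Traf1 (0.981) and Emd (0.974). Pdcd1 was most like Cd3e (0.997), Cd8b1 (0.992) and Cd6 (0.991), and Lgals9 like 1110008F13Rik (0.960), Ly96 (0.952) and Rhou (0.949).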

How the data were processed

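Cells of 4 libraries were profiled, each pooled from 3 mice, with 4000 cells loaded. The deposited files hold unnormalized UMI counts for every barcode. Per the file headers the authors ran Cell Ranger 3.0.2, and the submitters' processing notes name mm10. The labels name both v2 and v3 kits. Barcodes above the minimum of each library's UMI density (895 to 1009 UMIs), with at least 200 genes and at most 10% mitochondrial UMIs, were kept. Cells were clustered with scanpy 1.11.5 and leidenalg 0.10.2 (2000 variable genes, 30 components, 15 neighbours, resolution 1), without members, pathway or interferon genes. Names came from marker lists, and no doublet caller was run.

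Counts were summed per class and library and given as CPM with exact Poisson 95% intervals, and ratios with conditional binomial intervals. Shares have Clopper-Pearson intervals, with each cell thinned to 2000 UMIs in 1 random draw. The free RNA share of a class is the median ratio of other cell types' genes in it to their level in near-empty barcodes. A call is a 1.5-fold difference of CPM plus 10, among genes with at least 20 UMIs and 50 CPM in 1 library. A gene can thus pass through only the library in which it is high, and calls of such genes lean on this filter. Ratios need 50 cells a library. Depth was 68828158 to 88855120 UMIs a library.

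The members, the gene lists and the tests were chosen with earlier results of these data known. Pathway genes named are the 4 highest and 4 lowest measured in LNP-cGAMP against PBS plus a fixed set, and likeness names the 3 genes of highest Pearson r. Calculations were tested on simulated data. Alternatives were equal weight per cell, TMM scaling, totals without mitochondrial genes, a pseudocount of 1, no filter, UMI minimums of 500 and 2000, a mitochondrial limit of 20%, resolutions of 0.5 and 2, marker-score classes, free RNA subtracted, male-called cells and 1 cluster alone. Leaving out shared barcodes, dendritic cluster 18, sub-clusters 6 or 10, and T cluster 11 alone were added after seeing the data. One gene of the pathway list is counted but not reported here by name.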

Additional observations from a re-analysis of the deposited data

How the results depend on the processing

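With 1 library per treatment, differences between mice cannot be separated from treatment, and small classes (57 dendritic and 15 cluster 11 T cells at the fewest) limit depth. The Havcr2 log2 ratio in T cells reversed to -0.30 for LNP-cGAMP within cluster 12 and to -0.033 for the combination within cluster 11. Counts of members past 1.5-fold moved as follows, and the cause was not tested. In macrophages LNP-cGAMP went from 0 to 1 with no filter or in 1 cluster, anti-PD-L1 from 1 to 0 with a mitochondrial limit of 20%, marker-score classes or male-called cells, and the combination from 0 to 1 in male-called cells or 1 cluster. In neutrophils LNP-cGAMP went from 0 to 1 with TMM scaling or in 1 cluster. In dendritic cells LNP-cGAMP went from 3 to 1 with marker-score classes. Anti-PD-L1 there went from 0 to 1 under TMM scaling, a pseudocount of 1, no filter, either UMI minimum, the 20% limit, either resolution, marker scores, 1 cluster, or without cluster 18. The combination went from 1 to 0 with equal cell weight, either UMI minimum, the 20% limit, either resolution or marker scores, and to 2 in 1 cluster or without cluster 18. Some of these settings changed the dendritic class itself, by adding a large cluster with Cd74 and H2-Aa among its leading genes. That cluster held 1010 cells under the 20% limit, 530 and 887 under the lower and higher UMI minimum and 545 at resolution 2. Under the 20% limit its cells were 321, 12, 471 and 206 by library, beside 146, 57, 149 and 91 in the whole main class. In T cells LNP-cGAMP went from 1 to 4 with equal cell weight, to 2 with no filter or without sub-cluster 10, and to 0 with a minimum of 500 or resolution 2. Anti-PD-L1 went from 2 to 1 with either UMI minimum or resolution 2. The combination went from 1 to 4 with equal cell weight, to 3 with no filter, to 2 with a pseudocount of 1 or without sub-cluster 6, and to 0 with a minimum of 500, resolution 2 or marker scores. Settings that left under 50 cells in a library could not be run, so the counts say nothing about them. For LNP-cGAMP these were the dendritic cluster alone, with 48 cells in it, and leaving out cluster 18. Male-called cells could not be compared for dendritic cells, for combination neutrophils or for T cells with the antibody or both agents. At the lower resolution T cells could not be compared with PBS, which had 29 of them. No paired analysis was possible because each treatment was 1 library.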
